A study of Mus musculus with 6 samples.

Results

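The RNA exosome subunits are the protein subunits of the main 3′-to-5′ RNA-degrading complex of animal cells, and their mRNA levels were followed in long-term haematopoietic stem cells (LT-HSCs) labelled Zcchc8 KO and wild type. The members were taken by gene symbol, Exosc1, Exosc2, Exosc3, Exosc4, Exosc5, Exosc7, Exosc8, Exosc9, Exosc10 and Dis3, which are 10 of the 14986 genes in the expression table, and all 10 passed the expression filter. The remaining ring subunit, Exosc6, was not analysed here. The study sequenced polyadenylated RNA of mouse bone marrow LT-HSCs in 3 libraries labelled ZCCHC8 KO and 3 labelled wild type, each from 1500 sorted cells. Strain, age and sex of the mice, the allele behind the KO and the number of animals are not stated in the labels. Since no label ties a library to an animal of its own, p-values here speak for the spread of these libraries, which may be technical.

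The exosome is a barrel. A ring of proteins related to the bacterial enzyme RNase PH carries a cap of 3 RNA-binding proteins with S1 or KH domains, and in animals this core holds the RNA but does not cut it. The nucleases are DIS3, at the bottom of the barrel and both an exonuclease and an endonuclease, and EXOSC10, on the cap side and enriched in the nucleolus. ZCCHC8 belongs to the nuclear exosome targeting (NEXT) complex, an adaptor that delivers promoter upstream transcripts, enhancer RNAs and other short-lived nuclear RNA to this machine. In mouse erythroid precursors, EXOSC8 and EXOSC9 are known to hold back maturation, and in human plasma cell cancer DIS3 is a recurrent target of mutation. The comparison asks how the machine itself was expressed when its nuclear adaptor was targeted.

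Values are FPKM, reads scaled by exon length and library size, as the authors made them. Zcchc8 itself stood at 10.4, 5.54 and 5.92 FPKM in the KO libraries, against 8.93, 5.24 and 5.16 FPKM in wild type (adjusted p = 0.94), so the table does not check the KO label, and a direction below is that of libraries labelled KO. The reads behind the FPKM numbered 18963403 to 25709601 per library in KO and 18059343 to 18909234 in wild type. Genes at 0 FPKM numbered 810 to 832 per library in KO and 508 to 549 in wild type, and the cause was not tested. The 10 stem cell markers used, among them Procr, Hlf and Kit, were above 0 in every library, with sums of 230.8 to 269.4 FPKM in KO and 242.3 to 286.5 FPKM in wild type. Their sums overlapped, and of these 10 markers 0 passed the test. Ly6a, the largest part of these sums, averaged 153 FPKM in KO and 129 FPKM in wild type, with overlapping groups. Procr, Hlf and Kit were lower in every KO library than in any wild-type library. Procr averaged 39.1 FPKM in KO and 52.6 FPKM in wild type, and Kit 23.2 and 36.7 FPKM. Ptprc was higher in every KO library than in any wild-type library. Slamf1, Fgd5 and Tek were higher on average in KO, and Mecom and Ctnnal1 lower, with overlapping groups. Markers of other blood cells differed between the groups. The 4 progenitor markers summed to 176.3 to 189.2 FPKM in KO and 117.4 to 124.5 FPKM in wild type. Cd48, a surface protein used to gate LT-HSCs by its absence, averaged 104.8 FPKM in KO and 49.9 FPKM in wild type (limma adjusted p = 0.0122). Dntt, the lymphoid DNA polymerase TdT, averaged 15.7 FPKM in KO and 1.37 FPKM in wild type (limma adjusted p = 0.0125). Cd34 and Flt3 went the other way on average, at 57.3 and 3.30 FPKM in KO and 65.9 and 3.93 FPKM in wild type, with overlapping groups. The 7 granulocyte markers summed to 3593 to 4008 FPKM in KO and 2687 to 2892 FPKM in wild type. S100a9, the largest part of that sum, averaged 2003 FPKM in KO and 1386 FPKM in wild type and alone was called. S100a8, Ngp, Camp and Ltf were also higher on average in KO. Mpo was lower in every KO library, averaging 49.9 FPKM against 67.5 FPKM in wild type, and Elane averaged 130.2 and 132.2 FPKM. The monocyte and dendritic cell markers summed to 187.2 to 213.6 FPKM in KO and 101.5 to 119.6 FPKM in wild type, with H2-Aa alone called, as higher in KO. The 6 erythroid markers summed to 400.6 to 423.3 FPKM in KO and 104.4 to 139.0 FPKM in wild type, with 3 called higher. The 4 eosinophil markers, all called higher, summed to 160.9 to 204.8 FPKM in KO and 0.116 to 1.02 FPKM in wild type. T and NK cell markers summed to 310.2 to 323.4 FPKM in KO and 189.0 to 232.4 FPKM in wild type. Megakaryocyte markers summed to 297.3 to 328.8 FPKM in KO and 164.2 to 230.8 FPKM in wild type. In both lists 0 genes were called. Nkg7 and Pf4 made up most of these sums, and Klrb1c, Ppbp and Gp1bb were lower on average in KO. The 6 B cell markers summed to 63.3 to 90.4 FPKM in KO and 804.0 to 918.1 FPKM in wild type, a difference carried by the antibody light chain gene Igkc, at 0, 0 and 1.35 FPKM in KO and 773.6, 746.1 and 865.8 FPKM in wild type. Without Igkc the other 5 summed to 63.3 to 90.4 FPKM in KO and 52.3 to 60.3 FPKM in wild type, the opposite direction, and 0 of these 5 passed the test. In bulk RNA fewer cells of a type and less RNA per cell cannot be told apart, and the part of these differences in the values below was not tested.

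The 10 subunit mRNAs were not equal in level. Over the 6 libraries, the cap gene Exosc3 had the highest mean, 83.1 FPKM, and the nuclease gene Dis3 the lowest, 2.39 FPKM, a ratio of 34.8. Exosc3 ranked above the other members in 6 of 6 libraries. It was followed by Exosc2 at 46.2 FPKM, Exosc4 at 42.9 FPKM and Exosc5 at 32.4 FPKM. A middle tier held Exosc1 at 15.7 FPKM, Exosc10 at 13.6 FPKM and Exosc7 at 12.3 FPKM. Below it came Exosc9 at 6.60 FPKM and Exosc8 at 4.87 FPKM. The ranges over libraries were separate at 3 places in this order, between Exosc3 and Exosc2, between Exosc5 and Exosc1, and between Exosc7 and Exosc9, and neighbours elsewhere overlapped. Among all genes in the table, Exosc3 stood above 94.4% and Dis3 above 34.8%.

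**Figure D1:**
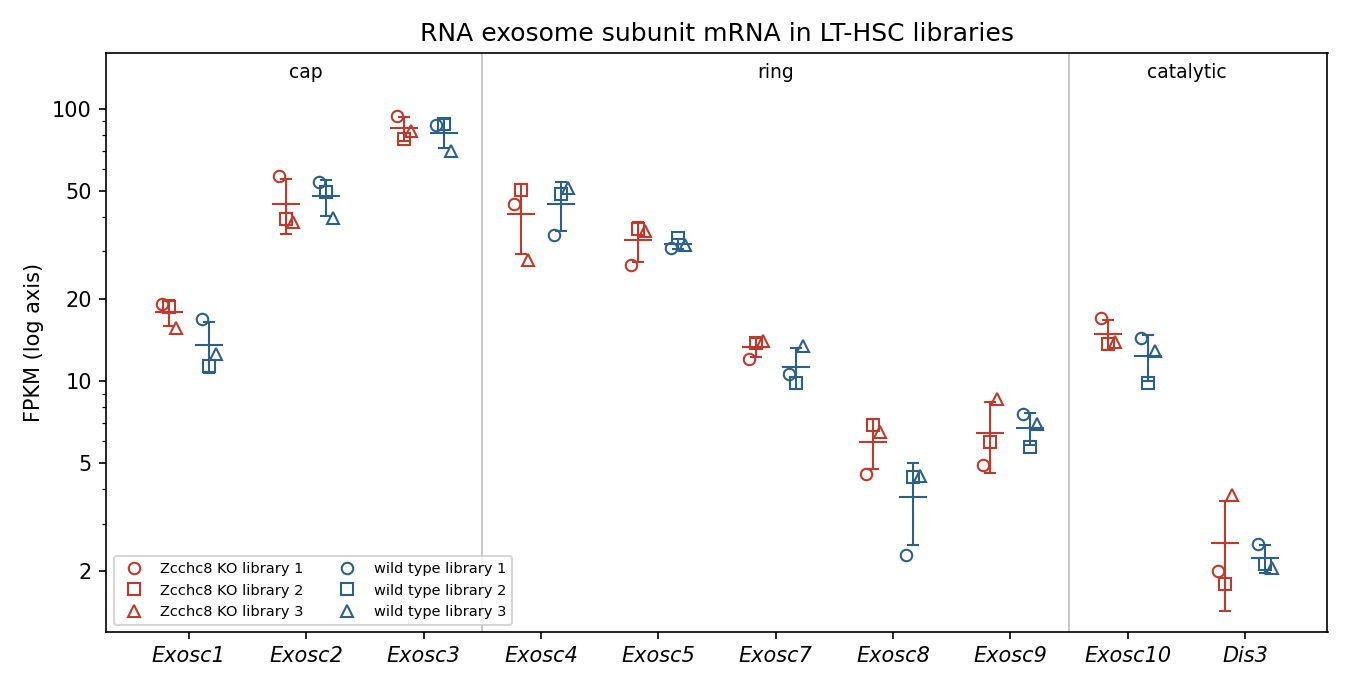
FPKM on a log axis for each subunit in each library, with Zcchc8 KO at the left of each pair and wild type at the right; horizontal bars and whiskers are the mean ± SD of 3 libraries. Exosc3 is highest in all 6 libraries, at 70.1 FPKM or more, and the KO and wild-type ranges are separate for Exosc8 alone.

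This order depends in part on the length that FPKM divides by. FPKM was reckoned on the union of all annotated exons, retained-intron isoforms included, and the main isoform covers very different shares of that union. For Exosc7 the principal transcript makes up 17.5% of the union of 6013 bases, for Exosc1 25.1% of 4053, for Exosc5 26.8% of 6268 and for Exosc8 30.0% of 4333, but for Exosc4 it makes up 92.3% of 1945. Divided by the principal transcript alone, a choice made after seeing the data, 7 of the 10 members took another rank. Exosc5 then led with 120.8 reads per kilobase on the same scale and Exosc3 followed with 102.2, while Dis3 remained last at 3.595. All reads of the union were kept, and those outside the principal transcript raise these values. Reads lost at exon junctions would lower them, so the values are not bounds for that transcript. The ratio of highest to lowest was 33.6. The low place of Dis3 was thus found on both lengths, while the order within the upper tiers was not. Both lengths divide the same reads, and reads across exon junctions can be lost in alignment. The principal transcript has 21 exons in Dis3 and 25 in Exosc10, against 4 in Exosc3 and 3 in Exosc4. The part of such loss in the order, the place of Dis3 included, was not tested.

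Promoter windows from RefSeq (GRCm38.p6), 250 bases before to 50 after the annotated start, were matched for 8 members, all but Exosc4 and Exosc9. Exosc10 had 2 such windows, and only the first listed was used. The 4 windows shown belong to the member with the largest difference between groups, Exosc8 (minus strand, chr3:54735315-54735614), the member with the next largest, Exosc1 (minus strand, chr19:41933265-41933564), the most abundant, Exosc3 (minus strand, chr4:45320567-45320866), and the least abundant, Dis3 (minus strand, chr14:99099721-99100020). They are written 5′ to 3′ in the direction of the gene. Capitals mark matches on either strand to the GC box GGGCGG, the ETS core CCGGAAG, the CCAAT box CCAAT and the TATA box TATAAA, and the NRF1 motif was searched as well. In Exosc1 the 2 GC boxes overlap each other, and so do the first 2 CCAAT boxes.
Exosc8: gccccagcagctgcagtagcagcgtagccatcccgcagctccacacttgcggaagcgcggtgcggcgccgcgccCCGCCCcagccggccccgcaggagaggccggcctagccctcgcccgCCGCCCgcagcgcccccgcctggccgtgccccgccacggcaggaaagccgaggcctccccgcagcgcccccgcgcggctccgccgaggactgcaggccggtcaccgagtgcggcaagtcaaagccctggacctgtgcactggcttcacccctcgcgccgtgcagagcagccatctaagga
Exosc1: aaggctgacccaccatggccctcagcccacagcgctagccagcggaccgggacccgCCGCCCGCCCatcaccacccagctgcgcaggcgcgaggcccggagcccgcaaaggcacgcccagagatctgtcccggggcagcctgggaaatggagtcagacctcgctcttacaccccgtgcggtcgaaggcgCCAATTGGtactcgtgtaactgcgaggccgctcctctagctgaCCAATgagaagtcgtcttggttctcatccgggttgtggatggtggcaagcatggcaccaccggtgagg
Exosc3: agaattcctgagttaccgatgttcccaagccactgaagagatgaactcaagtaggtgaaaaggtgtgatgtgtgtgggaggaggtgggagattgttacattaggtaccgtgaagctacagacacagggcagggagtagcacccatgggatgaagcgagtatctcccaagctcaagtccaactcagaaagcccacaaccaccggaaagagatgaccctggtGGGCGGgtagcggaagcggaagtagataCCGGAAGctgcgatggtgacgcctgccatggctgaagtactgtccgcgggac
Dis3: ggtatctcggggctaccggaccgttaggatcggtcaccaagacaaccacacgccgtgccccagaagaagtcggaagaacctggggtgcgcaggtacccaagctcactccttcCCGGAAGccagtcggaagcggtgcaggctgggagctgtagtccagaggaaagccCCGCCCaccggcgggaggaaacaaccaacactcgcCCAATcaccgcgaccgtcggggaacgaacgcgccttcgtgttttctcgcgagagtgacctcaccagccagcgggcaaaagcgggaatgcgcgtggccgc

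CpG content varied among the 8 windows. The members' median was 21.5 CpG sites per 300 bases, against a median of 7 over the 32851 windows of the reference, and 8 of 8 were above that median. The Exosc7 window had 41 CpG sites and that of Exosc8 36, with a GC content of 75.7%, while Exosc3 had 12 and Exosc2 had 11, only modestly above the median of all windows, and the GC content of the Exosc2 window was 48.0%, against a median of 52.7% over all windows. The GC box was in 7 of the 8 windows, missing from that of Exosc2, and in 35.7% of all windows. The NRF1 motif was in the window of Exosc5 alone among the 8, and in 2.27% of all windows. The ETS core was in those of Exosc3 and Dis3, against 8.86% of all, and the CCAAT box in those of Exosc1, Exosc2, Exosc5 and Dis3, against 37.4%. No member window held TATAAA, which was in 13.6% of all windows. These are letter matches only.

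No exosome subunit passed the test of KO against wild type. Of the 10 members 0 passed an adjusted p of 0.05 in limma on log2(FPKM + 1), and 0 had an unadjusted p under 0.05, where 0.228% and 9.2% of the 11837 tested genes did. By limma-voom on recovered reads 0 members passed as well. By value 7 members were higher in KO and 3 lower (6 and 4 under TPM or quantile scaling, where Exosc5 changed sign), with a median log2 change of 0.07, against 50.2% higher and a median of 0.00215 over all tested genes. Summed over the 10 members, mRNA reached 281.9, 263.9 and 247.0 FPKM in KO and 259.9, 262.9 and 245.2 FPKM in wild type, and these ranges overlapped. For 9 of the 10 the 95% interval of the log2 change lay within 2-fold either way on the log2(FPKM + 1) scale, which understates the change of low genes. The exception was Exosc8.

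**Figure D2:**
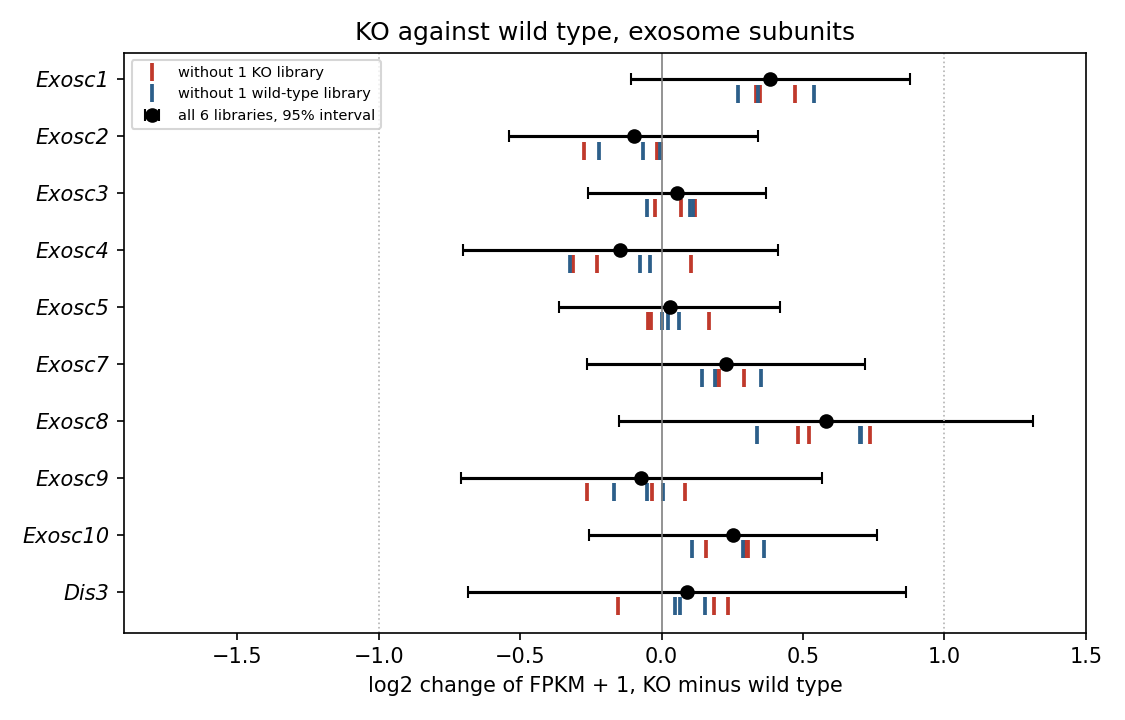
Log2 change of FPKM + 1, KO minus wild type, for each subunit (x axis), with black points and bars for the limma estimate and its 95% interval over 6 libraries. Ticks under each point are the estimates after leaving out 1 KO library or 1 wild-type library, and dotted lines mark a 2-fold change. Every interval includes 0, and the interval of Exosc8 alone passes a dotted line.

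The cap genes, whose proteins line the entry pore and bind RNA, stood as follows. Exosc1, encoding the homologue of yeast Csl4 (ENSMUSG00000034321.14, chromosome 19, 41922292 to 41933423, GRCm38, minus strand), was at 19.2, 18.7 and 15.7 FPKM in KO, against 16.9, 11.3 and 12.6 FPKM in wild type. The groups overlapped through wild-type library 1, which lay above KO library 3. The log2 change was 0.38 ± 0.22 (SE), with an interval of -0.11 to 0.88 and a limma adjusted p of 0.631. Without wild-type library 1 it was 0.54 with a limma adjusted p of 0.582, the single case among all members and alternatives whose unadjusted limma p was under 0.05. Exosc2, the Rrp4 homologue (ENSMUSG00000039356.15, chromosome 2, 31670715 to 31681349, plus strand), was at 56.6, 39.3 and 38.5 FPKM in KO and 53.8, 49.5 and 39.7 FPKM in wild type. Library 1 was the highest in both groups, and the ranges lay over each other, with a log2 change of -0.10 ± 0.19 (SE), which was between -0.28 and -0.0025 when 1 library was left out. Exosc3, the Rrp40 homologue (ENSMUSG00000028322.11, chromosome 4, 45316613 to 45342732, minus strand), was at 94.2, 77.1 and 82.6 FPKM in KO and 86.7, 88.0 and 70.1 FPKM in wild type. Its interval was the narrowest of the 10, from -0.26 to 0.37 around 0.05, and the sign turned without KO library 1 or wild-type library 3.

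The ring genes encode the RNase PH-like wall of the barrel. Exosc4, the Rrp41 homologue (ENSMUSG00000034259.8, chromosome 15, 76327397 to 76330677, plus strand), was at 44.7, 50.3 and 27.9 FPKM in KO and 34.3, 48.8 and 51.3 FPKM in wild type. KO library 3 was the lowest of the 6 and wild-type library 3 the highest, and the log2 change of -0.15 ± 0.25 (SE) became 0.10 without KO library 3. Exosc5, the Rrp46 homologue (ENSMUSG00000061286.7, chromosome 7, 25659164 to 25671368, plus strand), was at 26.6, 36.3 and 35.7 FPKM in KO and 30.7, 33.4 and 31.6 FPKM in wild type. Its wild-type libraries lay close together inside the KO range, and the log2 change was 0.03 ± 0.17 (SE), with a sign that turned under TPM or quantile scaling, in limma-voom, and without KO library 2 or 3. Exosc7, the Rrp42 homologue (ENSMUSG00000025785.5, chromosome 9, 123113215 to 123136129, plus strand), was at 12.1, 13.8 and 14.04 FPKM in KO and 10.6, 9.84 and 13.5 FPKM in wild type. Wild-type library 3 fell within the KO range, and the log2 change was 0.23 ± 0.22 (SE), with an interval of -0.26 to 0.72, and 0.14 without wild-type library 2 or 0.35 without wild-type library 3.

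Exosc8, the Rrp43 homologue (ENSMUSG00000027752.15, chromosome 3, 54728678 to 54735393, minus strand), showed the largest difference over the 6 libraries. It was at 4.57, 6.91 and 6.51 FPKM in KO, against 2.30, 4.45 and 4.49 FPKM in wild type. The groups did not overlap, though the lowest KO library stood just above the highest wild-type library. The mean of 5.996 ± 1.25 FPKM in KO was 1.60 times that of 3.75 ± 1.25 FPKM in wild type (SD, n = 3 each). The log2 change was 0.58 ± 0.32 (SE) with an interval of -0.15 to 1.31, and the limma adjusted p was 0.623. An exact permutation test, two-sided, returned p = 0.1, the lowest value available to 3 libraries against 3. Without wild-type library 1, whose value rests on 180 reads against 353 and 368 in the other wild-type libraries, the log2 change was 0.34, and those of Exosc1 at 0.54 and Exosc10 at 0.36 were then larger. Exosc8 was the only one of 10 members, or 10%, whose groups did not overlap, and 15.2% of all tested genes had such groups, 8.24% with KO higher.

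Exosc9, encoding the Rrp45 homologue also known as the autoantigen PM/Scl-75 (ENSMUSG00000027714.11, chromosome 3, 36552606 to 36565727, plus strand), had overlapping groups. It was at 4.90, 5.96 and 8.56 FPKM in KO and 7.55, 5.72 and 6.93 FPKM in wild type. KO libraries held both the lowest and the highest value, and the log2 change was -0.07 ± 0.28 (SE), with an interval of -0.71 to 0.57. The sign turned without KO library 1 or wild-type library 1. Beside these erythroid-linked subunits, the erythroid markers Car1, a carbonic anhydrase, and Hbb-bt, a beta globin, passed the test as higher in KO (adjusted p = 0.00408 and 0.00082), and whether cells of that lineage bear on the Exosc8 value was not tested.

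Neither catalytic subunit passed the test. Exosc10, the nuclear exonuclease known in yeast as Rrp6 (ENSMUSG00000017264.16, chromosome 4, 148558429 to 148582401, plus strand), was at 17.02, 13.6 and 13.9 FPKM in KO, against 14.4, 9.81 and 12.9 FPKM in wild type. Library 1 was the highest of each group and wild-type library 2 the lowest of all. The log2 change was 0.25 ± 0.22 (SE), with an interval of -0.26 to 0.76 (limma adjusted p = 0.778), and it was 0.11 without wild-type library 2. Dis3, the processive nuclease known in yeast as Rrp44 (ENSMUSG00000033166.11, chromosome 14, 99075206 to 99099770, minus strand), was at 2.01, 1.802 and 3.81 FPKM in KO, against 2.53, 2.13 and 2.05 FPKM in wild type. KO library 3 alone was above the wild-type range and the other KO libraries were below it. The log2 change of 0.09 ± 0.34 (SE) became -0.15 without KO library 3. Exosc10 mRNA was 8.48, 7.57 and 3.64 times that of Dis3 in KO, and 5.70, 4.61 and 6.29 times in wild type, in FPKM on exon unions.

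The spread between libraries was wider than the error of counting reads. The members had 180 to 4657 reads per library, and a counting error of 1.51% to 5.996% of the mean. In both groups the spread over the 3 libraries exceeded the counting error for all 10 members. It was widest for Dis3 in KO, a coefficient of variation of 43.5% against a counting error of 5.06%, and for Exosc8 in wild type, 33.5% against 5.996%. It was narrowest for Exosc5 in wild type, 4.23% against 1.65%. The reads are amplified cDNA without molecular identifiers, so counting error covers reads only.

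**Figure D3:**
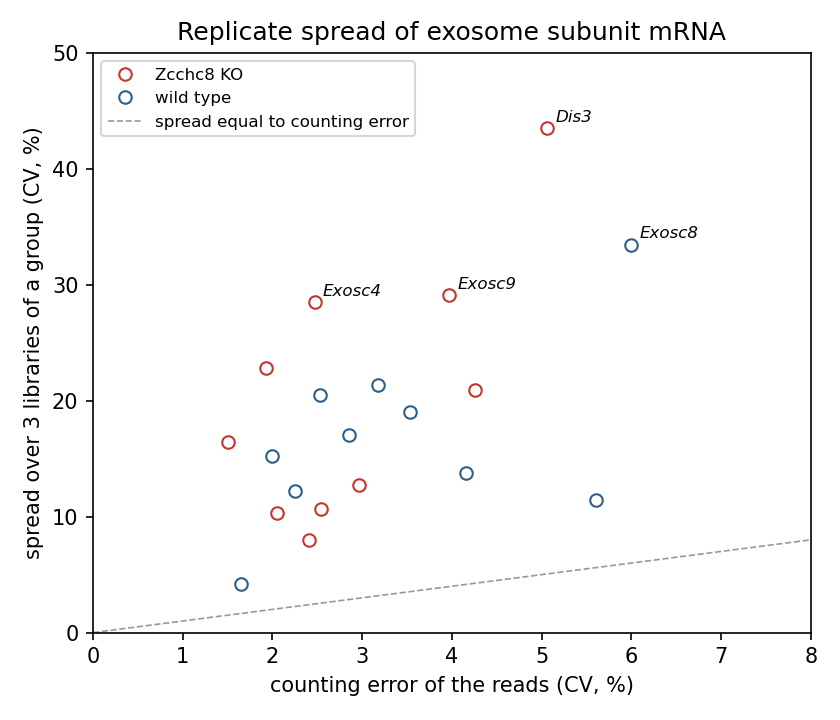
Coefficient of variation of FPKM over the 3 libraries of a group (y axis, percent) against the mean counting error of the recovered reads (x axis, percent), 1 circle per subunit and group, Zcchc8 KO in red and wild type in blue. Every circle lies above the dashed line of equality, and the members above 25% are named, Dis3 at 43.5% in KO being the widest.

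All members but Exosc10 have an annotated neighbour at their exons or start (GENCODE M21), and no source used here says whether the counting used strand, so reads in shared exons are uncertain. Exons of 7 members overlap exons of a gene on the opposite strand. The longest overlap, 510 bases, joins Exosc9 to Ccna2, the cyclin of S and G2 phase, and Ccna2 stood at 47.9, 42.4 and 32.9 FPKM in KO and 36.9, 34.2 and 32.2 FPKM in wild type. Exosc4 shares 385 bases with Oplah, Exosc5 355 with Tmem91, Dis3 325 with Pibf1, Exosc8 89 with Supt20 and Exosc3 53 with Dcaf10. Exosc2 shares 358 bases with the antisense gene Gm13427, which was at 1.37, 0.598 and 0.181 FPKM in KO and 2.02, 3.86 and 2.40 FPKM in wild type. The groups of Gm13427 did not overlap, as was so for 15.2% of all tested genes, and its adjusted p was 0.404 (limma). Dcaf10 was at 0.724, 2.16 and 2.15 FPKM in KO and 0.1895, 0.269 and 0.42 FPKM in wild type, with groups that did not overlap, below the filter and so not tested.

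In 4 members the neighbour starts back to back with the subunit gene. Exosc8 and Alg5, a glucosyltransferase gene of protein N-glycosylation, start 146 bases apart on opposite strands, and their promoter windows share 274 bases of the Exosc8 sequence printed above. Alg5 was at 11.9, 10.5 and 17.5 FPKM in KO, against 7.10, 7.61 and 7.58 FPKM in wild type. Its groups did not overlap, with KO higher as for Exosc8, a log2 change of 0.73 ± 0.25 (SE) and a limma adjusted p of 0.405. Over all tested genes 15.2% had groups that did not overlap, 8.24% with KO higher. Exosc1 and Zdhhc16, a palmitoyltransferase gene, start 57 bases apart. Zdhhc16 was at 12.03, 9.91 and 10.7 FPKM in KO and 12.6, 13.5 and 16.98 FPKM in wild type, with groups that did not overlap and KO lower, opposite in value to Exosc1 (limma adjusted p = 0.652). Exosc7 and Zdhhc3, 10 bases apart, and Exosc5 and Bckdha, 183 bases apart, had overlapping groups in both genes of the pair. None of these 4 neighbours passed the test.

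**Figure D4:**
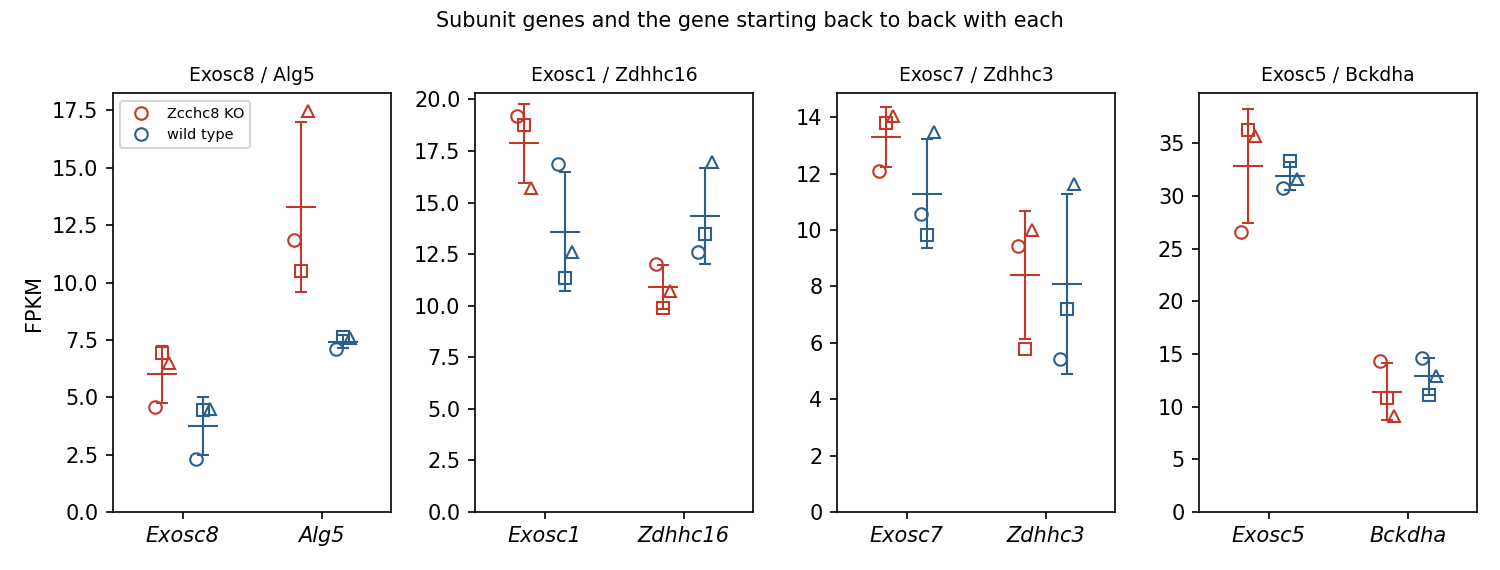
FPKM of 4 subunit genes and of the gene that starts back to back with each, in 4 panels with axes from 0; Zcchc8 KO in red at the left of each pair of columns and wild type in blue at the right, circles, squares and triangles for libraries 1, 2 and 3, bars and whiskers for the mean ± SD. Exosc8 and Alg5 both have KO libraries above all wild-type libraries. The KO mean is higher for Exosc1, whose groups overlap, and lower for Zdhhc16, and no gene shown passed the test.

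Genes of proteins that work with the exosome were set beside the subunits. Of 16 tested nuclear and nucleolar cofactors 0 passed the test in either direction. At an unadjusted p under 0.05, 1 was higher and 1 lower, where 9.2% of all tested genes were either. By value 13 were higher and 3 lower, against 50.2% higher over all tested genes, with a median log2 change of 0.05. Among the 13, the log2 changes of Ncbp2, Mtrex, Rbm7, C1d and Ncbp3 were only 0.0027 to 0.035. The split was not recounted under other scalings. Pabpn1, the nuclear poly(A)-binding protein of the polyA tail exosome targeting connection, was at 2.55, 3.65 and 5.73 FPKM in KO, against 9.82, 6.02 and 7.74 FPKM in wild type. The groups of Pabpn1 did not overlap (log2 change -0.86 ± 0.33 SE, limma adjusted p = 0.48). Groups that did not overlap, here and in the lists below, were found for 15.2% of all tested genes. Wdr74, a ribosome assembly factor that works with the helicases NVL and MTREX, was at 24.9, 30.3 and 18.2 FPKM in KO, against 15.3, 18.1 and 16.3 FPKM in wild type (limma adjusted p = 0.534). KO library 3 of Wdr74 stood barely above wild-type library 2.

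In the cytoplasm the exosome works with the Ski complex, and DIS3L takes the place of DIS3. Of 6 tested cytoplasmic factors 0 passed, with 2 higher and 4 lower by value and a median log2 change of -0.11. Dis3l was at 6.09, 4.89 and 5.52 FPKM in KO and 5.31, 2.89 and 2.23 FPKM in wild type, where wild-type library 1 fell within the KO range (limma adjusted p = 0.624). Skiv2l, the Ski helicase, was at 7.06, 4.64 and 7.28 FPKM in KO and 9.62, 8.16 and 8.10 FPKM in wild type, groups that did not overlap (limma adjusted p = 0.676).

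Enzymes of the other decay routes, 5′-to-3′ exonucleases, decapping factors and deadenylases, also held 0 passing genes of 23 tested, with 12 higher and 11 lower by value and a median log2 change of 0.02. Cnot7, a deadenylase of the CCR4-NOT complex, was at 20.2, 22.4 and 20.8 FPKM in KO and 14.7, 15.6 and 12.7 FPKM in wild type. The groups of Cnot7 did not overlap, and it was the 1 gene of this list with an unadjusted p under 0.05 (limma adjusted p = 0.405). Dcp1a, a decapping activator, was at 2.17, 1.86 and 3.29 FPKM in KO and 3.21, 3.28 and 5.31 FPKM in wild type, with overlapping groups (limma adjusted p = 0.679).

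**Figure D5:**
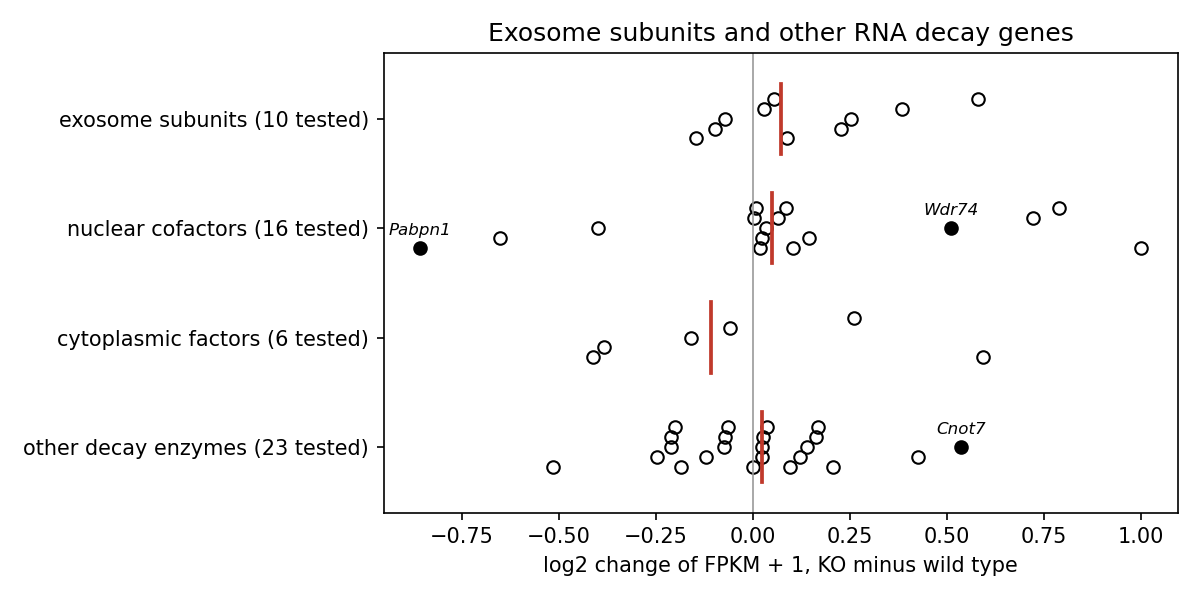
Log2 change of FPKM + 1, KO minus wild type (x axis), for each tested gene of the exosome subunits and of 3 lists of other RNA decay genes; red lines are medians, and filled points are genes with an unadjusted limma p under 0.05. The 10 subunits lie between -0.15 and 0.58, and the filled points are Pabpn1, Wdr74 and Cnot7.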

How the data were processed

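The deposited table, made by the authors, gives FPKM for each gene symbol. The submitters' processing notes list mm10 as build, with fastp, Bowtie2 and featureCounts as tools. No source used here states versions, annotation or strand setting. Bowtie2 does not split reads over introns, so reads across exon junctions can be lost. Per the labels' protocols, marrow was depleted of lineage-positive cells, 1500 LT-HSCs were sorted per sample, and libraries were made from 500 pg of amplified cDNA. Groups and replicate numbers came from sample titles. Symbols were matched to GENCODE M21 (GRCm38) for 14671 genes (97.9%). FPKM times exon-union length gave whole reads within 0.05 for 98.0% of the 19868 values below 100 reads. The values of the 10 members, at 180 to 4657 reads, lay above that limit and were not checked in this way.

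The filter was a 6-library mean FPKM of at least 1, which left 11837 genes. They were tested on log2(FPKM + 1) with limma 3.58.1 in R 4.3.3 (lmFit, eBayes with trend, two-sided, Benjamini-Hochberg over all tested genes, threshold 0.05). The procedure was tested on simulated data. Single genes also had exact permutation tests. Members and lists were chosen with earlier results of these data known. A further stem cell marker on the list is not reported here. Named from each list were genes past the threshold and the 2 of smallest p, and Zcchc8; the neighbouring genes were those the annotation places at the members' exons or within 1 kb of their starts on the opposite strand, added after seeing the data. Alternatives changed the pseudocount, filter, scaling, variance model, block and libraries, or used limma-voom on recovered reads. Within a group, libraries differed beyond counting error (mean chi-square over genes 54.6 to 77.8). Plots used matplotlib 3.10.9 (Python 3.11.15).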

Additional observations from a re-analysis of the deposited data

How the results depend on the processing

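Under 16 alternatives 0 of the exosome members passed, and their adjusted p was never below 0.552 (limma). The members' median log2 change of 0.07 lay between 0.04 and 0.08 under the other settings and between 0.04 and 0.16 when 1 library was left out, 0.16 without KO library 1 or 2, 0.13 without wild-type library 1 and 0.04 without wild-type library 3. With a filter of at least 5 FPKM, Exosc8 and Dis3 were no longer tested. The count of all genes called, 27, was 8 without the trend, 8 with limma-voom on recovered reads, and 11 to 19 without 1 library, and the cause was not tested.

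The sign of Exosc5 turned under TPM (-0.0054), quantile normalization (-0.0033) and limma-voom (-0.0011). Leaving out 1 library moved Exosc3 between -0.051 and 0.12, Exosc4 between -0.32 and 0.10, Exosc5 between -0.048 and 0.17, Exosc9 between -0.26 and 0.084 and Dis3 between -0.15 and 0.24. It moved Zcchc8 between -0.11 and 0.37, Zdhhc3 between -0.14 and 0.34 and Supt20 between -0.49 and 0.088. Exosc1, Exosc2, Exosc7, Exosc8 and Exosc10 kept their sign under every alternative that tested them, but without 1 library Exosc1 lay between 0.27 and 0.54, Exosc2 between -0.28 (without KO library 1) and -0.0025 (without KO library 3), Exosc7 between 0.14 and 0.35 (without wild-type libraries 2 and 3), Exosc8 between 0.34 (without wild-type library 1) and 0.74, and Exosc10 between 0.11 (without wild-type library 2) and 0.36. Exosc8 was the largest change of the 10 with each library left out in turn except without wild-type library 1. With the replicate number as a block 11 genes passed and 0 members; same-numbered libraries did not deviate together (correlations of 0.0037 to 0.024 over genes), and not every library correlated best with its own number, so the numbers were not taken as pairs.

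Counting error was below the spread between libraries for every member. With 3 libraries a group, a change such as that of Exosc8, with an interval of -0.15 to 1.31, cannot be told from none.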
